A study of Mus musculus with 30 samples.

Results

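The MHC class I pathway was followed through 10 genes across 30 RNA sequencing libraries of mouse microglial cultures: the class I heavy chain genes H2-K1, H2-D1 and H2-T23, the light chain gene B2m, the peptide transporter genes Tap1 and Tap2, and the loading and trimming genes Tapbp, Calr, Pdia3 and Erap1. They were chosen by name, as a gene family, with earlier results of these data known. All 10 are among the 13788 genes in the deposited table. The cultures came from mice labelled PD-1 KO and from wild-type (WT) mice; PD-1, encoded by Pdcd1, is an inhibitory receptor best known on T cells. Both genotypes were sampled at 0 h, and at 2 h and 8 h both with and without amyloid-beta, the peptide that forms the plaques of Alzheimer's disease, with 3 libraries in each of the 10 groups. All cultures were primary cells from mouse brain, shaken off after several days in culture, and amyloid-beta was given as conditioned medium. The labels give neither the medium of the untreated cultures, nor the mouse strain, nor the animals behind each library, so each p-value reflects only how these libraries spread, which may be technical.

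Class I molecules carry short peptides from proteins made inside a cell to its surface, where CD8 T cells and natural killer cells read them. A heavy chain folds in the endoplasmic reticulum with calnexin and joins β2-microglobulin. Calreticulin, tapasin and ERp57 then hold the pair next to the TAP transporter until a peptide made by the proteasome fits. Microglia, the resident macrophages of the brain, carry little class I at rest and raise it under interferon, through the transactivator NLRC5 and factors of the STAT and IRF families.

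Of the 10 genes, 6 lie on mouse chromosome 17, in or beside the major histocompatibility complex (GRCm38, GENCODE M21 annotation). Tapbp lies at chr17:33915899-33929292, H2-K1 at chr17:33996017-34000347, Tap1 at chr17:34187553-34197225, Tap2 at chr17:34203527-34216321, H2-D1 at chr17:35262730-35267499 and H2-T23 at chr17:36029773-36032855. Outside it, Pdia3 lies at chr2:121413775-121438687, B2m at chr2:122147686-122153083, Calr at chr8:84841850-84846934 and Erap1 at chr13:74639568-74693201.

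The promoters of 5 of these genes are printed: those of the heavy chain genes H2-K1, H2-D1 and H2-T23 and the light chain gene B2m, which differed between the genotypes, and that of Calr, which fell at 8 h against 0 h in WT cultures, where H2-K1, H2-D1 and B2m rose. Each line gives the 200 bases before the gene's start in RefSeq (GRCm38.p6), 5′ to 3′ on the gene's strand. RefSeq and GENCODE differ on some starts: the H2-D1 window and most of the H2-T23 window lie inside the GENCODE positions given above. Motif positions count from the RefSeq start. Capitals mark matches to any of 5 motifs searched on both strands. Every printed window holds a match. Tap1, Tapbp and Erap1 were also called lower in PD-1 KO-labelled libraries at 2 h with amyloid-beta. Their windows held no match and are not printed, so the printed windows do not stand for all members that differed.
H2-K1, the more upstream of its 2 listed starts, chr17:34000348-34000547, minus strand: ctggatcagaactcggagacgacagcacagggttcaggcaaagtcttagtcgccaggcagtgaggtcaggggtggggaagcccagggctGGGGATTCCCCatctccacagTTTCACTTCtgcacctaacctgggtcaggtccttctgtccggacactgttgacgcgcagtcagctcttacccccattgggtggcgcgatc
H2-D1, chr17:35262894-35263093, plus strand: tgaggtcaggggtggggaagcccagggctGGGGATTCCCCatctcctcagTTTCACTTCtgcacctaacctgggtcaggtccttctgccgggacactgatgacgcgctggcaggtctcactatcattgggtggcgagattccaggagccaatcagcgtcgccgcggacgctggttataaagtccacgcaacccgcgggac
B2m, chr2:122147487-122147686, plus strand: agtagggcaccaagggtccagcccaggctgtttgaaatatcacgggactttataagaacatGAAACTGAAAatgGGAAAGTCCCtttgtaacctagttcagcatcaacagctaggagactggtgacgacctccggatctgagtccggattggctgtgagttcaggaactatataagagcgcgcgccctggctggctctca
H2-T23, chr17:36032702-36032901, minus strand: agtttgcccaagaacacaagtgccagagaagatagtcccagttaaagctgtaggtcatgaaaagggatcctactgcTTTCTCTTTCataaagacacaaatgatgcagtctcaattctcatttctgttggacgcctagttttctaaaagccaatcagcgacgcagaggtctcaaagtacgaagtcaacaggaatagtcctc
Calr, chr8:84846932-84847131, minus strand: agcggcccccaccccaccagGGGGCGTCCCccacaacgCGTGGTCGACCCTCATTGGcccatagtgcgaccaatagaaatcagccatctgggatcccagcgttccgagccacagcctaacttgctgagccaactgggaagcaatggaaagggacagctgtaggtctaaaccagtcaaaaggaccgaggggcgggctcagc

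The motifs were the interferon response element, spelled GAAA, any 2 bases and GAAA again, present in 2.27% of 32851 RefSeq promoters of the same length, and a shorter interferon factor motif, GAA, any 2 bases and GAAA (5% of promoters). The NF-κB motif was searched in 2 spellings, GGGG, any 2 bases and TCCC (1.17%), and GGGA, any base and TTTCC (0.286%). The endoplasmic reticulum stress element was CCAAT, any 9 bases and CCACG (0.103%). The shorter interferon motif was spelled after the sequences had been seen. The H2-K1 and H2-D1 promoters aligned over 139 columns with 127 identical bases (91.4%), and both carried the same NF-κB match, which reads as a match on either strand, followed by the same short interferon match. From the start they lay at positions -111 to -101 and -90 to -82 in H2-K1 and at -171 to -161 and -150 to -142 in H2-D1. B2m carried the full interferon element at positions -139 to -130 and the second NF-κB spelling at -126 to -117. H2-T23 carried the full interferon element at -124 to -115. Calr carried the first NF-κB spelling at -180 to -171 and the stress element at -162 to -144, and no interferon motif in this window. The windows of Tap1, Tapbp, Pdia3 and Erap1 held none of the 5 motifs, and Tap2 has no entry in the promoter table. A match is a run of letters and says nothing of whether a factor was bound in these cultures.

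A value here is a normalised read count, a gene's reads scaled by the authors with 1 size factor a library. The reads behind them, recovered from the steps between values, summed to between 4227019 and 48509985 per library. No member had a value under 460.4 or fewer than 225 reads in any library, so depth did not limit the members. Per kilobase of annotated exon, the mean over the 30 libraries was 23172 for B2m, 6017 for H2-D1, 2603 for H2-K1, 2070 for Calr, 1567 for Pdia3, 757 for Tapbp, 384 for H2-T23, 153 for Tap2, 138 for Tap1 and 107 for Erap1. The light chain was thus far above every heavy chain, and the transporter and the trimming enzyme were the lowest.

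Pdcd1 itself ran against the labels: it stood at the table's floor of 1 in all 15 WT libraries and between 6.02 and 25.3 in the 15 PD-1 KO-labelled libraries. Every genotype comparison therefore follows the labels as given, and the direction of each rests on them. Markers of other brain cell types also moved with the genotype label, and 9 of 9 astrocyte and 6 of 6 ependymal markers were called higher in PD-1 KO-labelled libraries in each of the 5 conditions. The 9 astrocyte markers measured summed to between 11126 and 27818 in PD-1 KO-labelled libraries and to between 1219 and 3755 in WT libraries. The 6 ependymal markers summed to between 1329 and 6101 in PD-1 KO-labelled libraries and to between 72.8 and 444 in WT libraries. Oligodendrocyte lineage markers summed to between 6541 and 10829 in PD-1 KO-labelled libraries and to between 2494 and 5688 in WT libraries. All 12 microglia markers were in the table, and their sums overlapped, at 53375 to 95622 in PD-1 KO-labelled libraries and 67654 to 126352 in WT libraries. Of 10 lymphocyte and neutrophil markers, 0 are in the table, and they were not analysed here. The part of other cell types in the differences reported here was not tested. In these bulk libraries fewer cells of a type and less RNA per cell cannot be told apart.

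The main question was whether class I genes differed between genotypes in each culture condition. Most members differed at 2 h with amyloid-beta, where 8 of the 10 members were lower in PD-1 KO-labelled libraries (limma, Benjamini-Hochberg adjusted p under 0.05), against 16.7% of the 13722 tested genes called lower there and 38.9% called in either direction. The same 8 members had every library labelled PD-1 KO below every WT library, against 19% of tested genes. The median log2 change of the 10 members was -0.63, against 0.02 for all tested genes.

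H2-T23, which encodes the heavy chain of Qa-1, a nonclassical class I molecule read by the NKG2 receptors of natural killer and T cells, had 652, 526 and 758 normalised reads in PD-1 KO-labelled libraries, against 2401, 2266 and 2062 in WT libraries, at 2 h with amyloid-beta. The groups lay far apart, with a log2 change of -1.81 ± 0.20 (SE; adjusted p = 2.84e-08), a ratio of 0.285. B2m, the light chain that every class I heavy chain needs to reach the surface, had 12543, 13566 and 13144 in PD-1 KO-labelled libraries, against 24766, 30638 and 30952 in WT libraries. Even the lowest WT library lay far above the highest library labelled PD-1 KO, and the log2 change was -1.13 ± 0.12 (adjusted p = 2.5e-08). Tap1, one chain of the transporter that brings peptides into the endoplasmic reticulum, had 584, 522 and 678 in PD-1 KO-labelled libraries, against 1159.9, 1273 and 1138 in WT libraries. Its log2 change was -1.01 ± 0.12 (adjusted p = 1.03e-07), again without overlap.

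The classical heavy chains H2-D1 and H2-K1, which present peptides to CD8 T cells, fell side by side. H2-D1 had 11618, 11301 and 14391 in PD-1 KO-labelled libraries, against 26053, 20752 and 21460.3 in WT libraries (-0.87 ± 0.12, adjusted p = 1.24e-06). H2-K1 had 6038, 6019 and 6978 in PD-1 KO-labelled libraries, against 12788, 10973 and 10009 in WT libraries (-0.82 ± 0.11, adjusted p = 1.57e-06). In both genes the highest library labelled PD-1 KO lay well under the lowest WT library. The 3 other calls were smaller. Tapbp, which encodes tapasin, the bridge between heavy chain and transporter, had 2510.4, 2433 and 2605 in PD-1 KO-labelled libraries, against 2927, 3802 and 3479.6 in WT libraries, a log2 change of -0.43 ± 0.09 (adjusted p = 0.000459). Calr, the lectin chaperone calreticulin, had 5374, 5393 and 5374 in PD-1 KO-labelled libraries, against 7548, 6310.4 and 7655 in WT libraries (-0.41 ± 0.10, adjusted p = 0.00126). These groups did not overlap either, although the WT libraries were widely spread. Erap1, the aminopeptidase that trims peptides to length, had 687, 665 and 669.6 in PD-1 KO-labelled libraries, against 805, 916 and 952 in WT libraries (-0.40 ± 0.12, adjusted p = 0.0074).

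The remaining pair did not pass. Tap2, the other chain of the transporter, had 627, 568 and 537 in PD-1 KO-labelled libraries, against 648, 718 and 597 in WT libraries (-0.18 ± 0.09, adjusted p = 0.116). Pdia3, which encodes the thiol oxidoreductase ERp57, had 4429.5, 4718 and 4391 in PD-1 KO-labelled libraries, against 4651, 5229 and 5319 in WT libraries (-0.17 ± 0.08, adjusted p = 0.102). The libraries of both genes overlapped between the genotypes. At 2 h with amyloid-beta the microglia markers summed to between 53375 and 64617 in PD-1 KO-labelled libraries and to between 100191 and 126352 in WT libraries, and 7 of the 12 were called lower and 1 higher. With each library centred on those 12 markers, a setting added after the data had been seen, H2-T23 (-1.29), B2m (-0.61), Tap1 (-0.49), H2-D1 (-0.35) and H2-K1 (-0.30) stayed lower in PD-1 KO-labelled libraries, while Tapbp, Calr and Erap1 changed sign to 0.09, 0.11 and 0.12 and were not called. Tap2 (0.34) and Pdia3 (0.35) were then called higher. That centring shifted all tested genes alike and moved their median log2 change to 0.54. It cannot change where a member stands relative to that median. Quantile normalization took the call from Calr (-0.08).

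**Figure D1:**
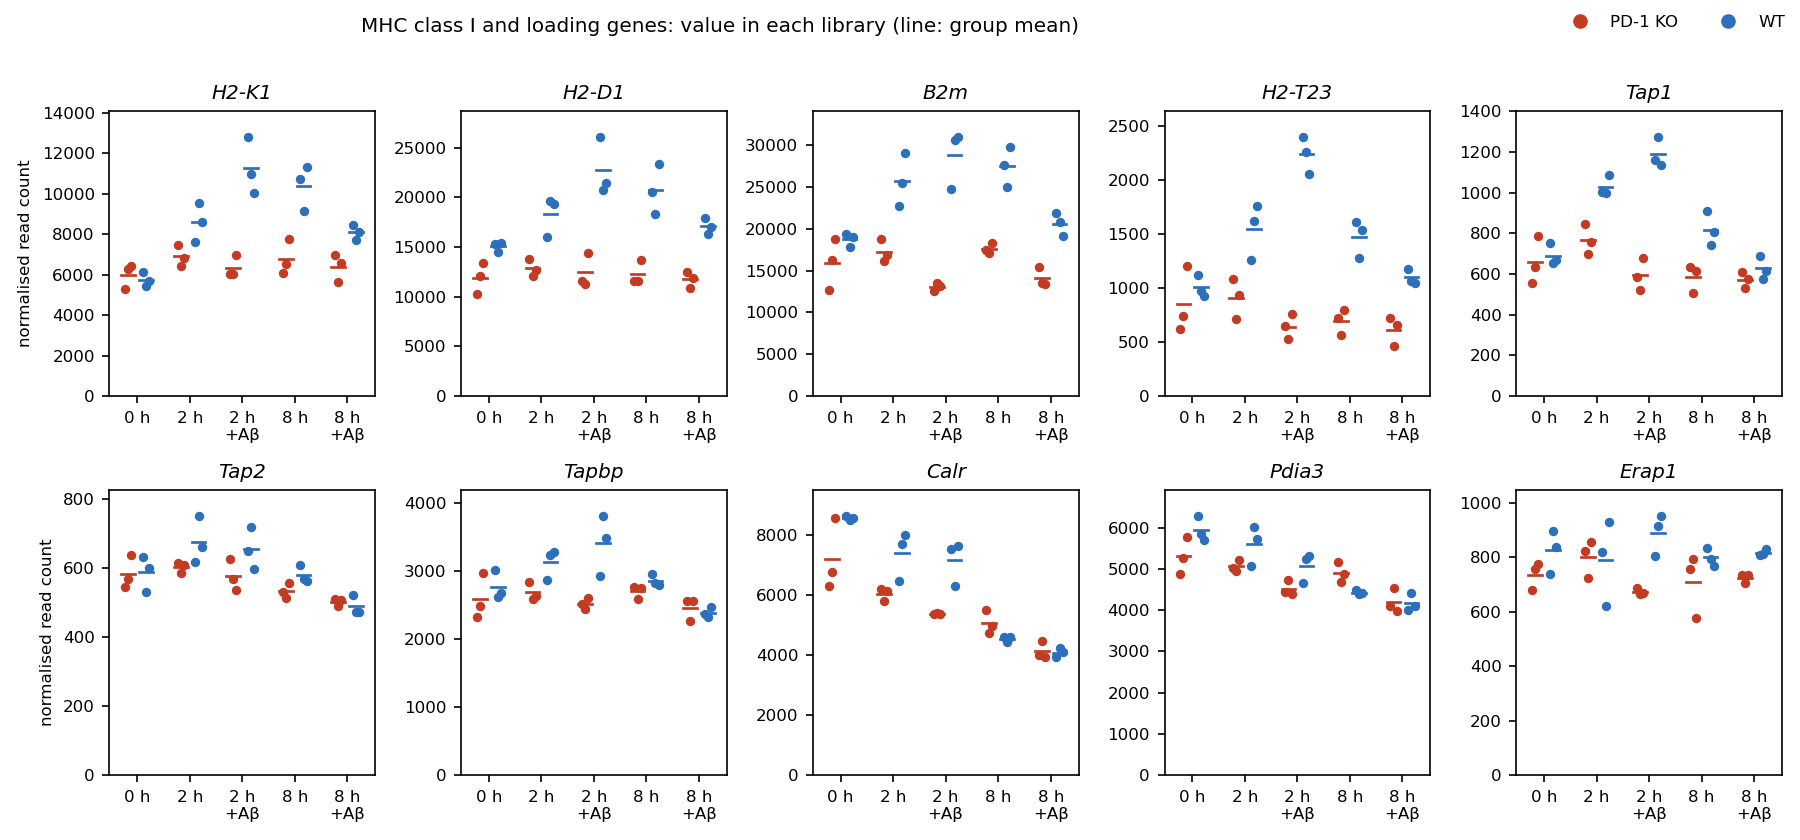
Normalised read count of each of the 10 genes in each of the 30 libraries (points) and the mean of each group (lines), with libraries labelled PD-1 KO left of WT libraries in each condition. The WT groups of H2-K1, H2-D1, B2m, H2-T23 and Tap1 peak at 2 h with amyloid-beta, while Calr and Pdia3 are highest at 0 h.

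At 2 h without amyloid-beta, 6 of the 10 members were lower in PD-1 KO-labelled libraries, against 13.4% of tested genes lower and 32.2% called in either direction. These 6 and also Tap2 and Tapbp had every library labelled PD-1 KO below every WT library, against 20.3% of tested genes. H2-T23 had 1084, 713 and 939 in PD-1 KO-labelled libraries, against 1263, 1626 and 1759.9 in WT libraries (-0.77 ± 0.20, adjusted p = 0.00315). B2m had 18786, 16123 and 16829 in PD-1 KO-labelled libraries, against 22765, 25424 and 29017 in WT libraries (-0.57 ± 0.12, adjusted p = 0.000542). H2-D1 had 13771, 12074 and 12705 in PD-1 KO-labelled libraries, against 15985, 19642 and 19289 in WT libraries (-0.51 ± 0.12, adjusted p = 0.00165). For these genes the genotypes did not overlap. Tap1 had 848, 699 and 757 in PD-1 KO-labelled libraries, against 1002, 997 and 1085 in WT libraries (-0.42 ± 0.12, adjusted p = 0.00654). H2-K1 had 7471, 6416 and 6799 in PD-1 KO-labelled libraries, against 7596, 9527 and 8619 in WT libraries (-0.31 ± 0.11, adjusted p = 0.0371). Calr had 6208, 5803 and 6123 in PD-1 KO-labelled libraries, against 6488, 7694 and 7997 in WT libraries (-0.29 ± 0.10, adjusted p = 0.0245). In H2-K1 and Calr the gap between the genotypes was narrow, and each lost its call without any 1 of 4 libraries, PD-1 KO replicate 2 or 3 and WT replicate 2 or 3. Both also lost it in a fit of the 2 groups alone, and H2-K1 with TMM factors and without the intensity trend. Quantile normalization called Tap1 and H2-T23 but left H2-D1 at -0.16 and B2m at -0.22, not called, and turned H2-K1 and Calr to 0.03. Of the 12 microglia markers 6 were called lower and 2 higher at 2 h, and centring on them called B2m and H2-T23 alone.

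At 8 h without amyloid-beta, 5 members were lower in PD-1 KO-labelled libraries, against 9.01% of tested genes lower and 27% called in either direction. For 7 members, these 5 with Tap2 and Tapbp, every library labelled PD-1 KO lay below every WT library, against 17.8% of tested genes. H2-T23 had 720.5, 562 and 799.7 in PD-1 KO-labelled libraries, against 1617, 1277 and 1537 in WT libraries (-1.10 ± 0.20, adjusted p = 8.68e-05). H2-D1 had 11557, 11603 and 13678 in PD-1 KO-labelled libraries, against 20569.6, 18280.1 and 23393 in WT libraries (-0.75 ± 0.12, adjusted p = 1.94e-05). H2-K1 had 6086, 6513 and 7781 in PD-1 KO-labelled libraries, against 10721, 9161 and 11302 in WT libraries (-0.62 ± 0.11, adjusted p = 0.000145). Each heavy chain was separated between the genotypes with no overlap. B2m had 17422, 17091 and 18301 in PD-1 KO-labelled libraries, against 27658, 24979.8 and 29726 in WT libraries (-0.64 ± 0.12, adjusted p = 0.000188). Tap1 had 636, 509 and 617 in PD-1 KO-labelled libraries, against 909, 743 and 805 in WT libraries (-0.48 ± 0.12, adjusted p = 0.00256). These 5 calls held in every setting run, including quantile normalization, centring on microglia markers and the omission of any 1 library. The folding factors went the other way in value: Calr had 5509, 4747 and 4959 in PD-1 KO-labelled libraries, against 4591, 4449 and 4595 in WT libraries, and all 3 libraries labelled PD-1 KO were the higher ones, as they were for Pdia3 and for 22.6% of tested genes, but neither passed the test (Calr 0.16 ± 0.10, adjusted p = 0.257; Pdia3 0.15 ± 0.08, adjusted p = 0.173). Quantile normalization called both higher (0.24 and 0.23), whereas centring on microglia markers left them at -0.04 and -0.05 and called Tap2 and Tapbp lower.

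At 8 h with amyloid-beta, 4 members were lower in PD-1 KO-labelled libraries, against 11.7% of tested genes lower and 33.7% called in either direction, and they were the heavy chains and B2m. With Erap1 they made up the 5 members whose libraries labelled PD-1 KO all lay below the WT libraries, against 27.8% of tested genes. H2-T23 had 728, 460.4 and 656 in PD-1 KO-labelled libraries, against 1178, 1069 and 1053 in WT libraries (-0.86 ± 0.20, adjusted p = 0.000883). H2-D1 had 12495, 10869.6 and 11905 in PD-1 KO-labelled libraries, against 17941, 16304 and 17027 in WT libraries (-0.54 ± 0.12, adjusted p = 0.000676). B2m had 15424, 13513 and 13411 in PD-1 KO-labelled libraries, against 21835, 20823 and 19082 in WT libraries (-0.54 ± 0.12, adjusted p = 0.000727). No library of these genes crossed between the genotypes. H2-K1 had 6944, 5621 and 6558 in PD-1 KO-labelled libraries, against 8471, 7694 and 8078 in WT libraries (-0.35 ± 0.11, adjusted p = 0.0192), and its call was lost without PD-1 KO replicate 2 or WT replicate 1. Tap1 had 609, 533 and 576 in PD-1 KO-labelled libraries, against 691, 578 and 616 in WT libraries, overlapping and not called (-0.13 ± 0.12, adjusted p = 0.422). Tap2, Tapbp, Calr and Pdia3 had log2 changes between 0.01 and 0.05. Quantile normalization left H2-K1 at -0.10 and B2m at -0.20, neither called, and called Calr higher (0.17).

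At 0 h the members hardly separated: 1 of 10, H2-D1, was lower in PD-1 KO-labelled libraries, against 6.88% of tested genes lower and 20.7% called in either direction. It was also the 1 member whose genotypes did not overlap, with 14.6% of tested genes lower in that way. H2-D1 had 10269, 12072 and 13365 in PD-1 KO-labelled libraries, against 15253, 14526 and 15392 in WT libraries (-0.35 ± 0.12, adjusted p = 0.0378). H2-K1 had 5281, 6264 and 6439 in PD-1 KO-labelled libraries, against 6109, 5446 and 5693 in WT libraries, fully mixed (0.06 ± 0.11). B2m had 12691, 16306 and 18797 in PD-1 KO-labelled libraries, against 19349, 17867 and 18995 in WT libraries (-0.25 ± 0.12, adjusted p = 0.15). Among the libraries labelled PD-1 KO, replicate 3 was the highest in each of these genes. Calr had 6303, 6766 and 8583 in PD-1 KO-labelled libraries, against 8642, 8498 and 8582 in WT libraries (-0.26 ± 0.10, adjusted p = 0.055). Tap1 had 556, 636 and 789 in PD-1 KO-labelled libraries, against 752, 652 and 668 in WT libraries (-0.08 ± 0.12). H2-T23 had 625, 738 and 1205 in PD-1 KO-labelled libraries, against 1119, 978 and 929 in WT libraries (-0.29 ± 0.20). Without PD-1 KO replicate 3, 4 members were called lower, H2-D1, B2m, Calr and H2-T23, whereas without any other library of the 2 groups 0 were. The H2-D1 call was also lost with TMM factors, with quantile normalization, with voom on the recovered reads and in a fit of the 2 groups alone. Quantile normalization still called 1 member, another than H2-D1. Of the 12 microglia markers 7 were called higher and 1 lower at 0 h, and centring on them called all 10 members lower and moved the median of all tested genes to -0.54.

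Averaged over the 5 conditions with equal weight, 8 members were lower in PD-1 KO-labelled libraries, where the rate for all tested genes was 29.1% lower and 59.5% called in either direction. The order of the log2 changes was H2-T23 (-0.97 ± 0.09), B2m (-0.63 ± 0.05), H2-D1 (-0.60 ± 0.05), Tap1 (-0.42 ± 0.05), H2-K1 (-0.41 ± 0.05), Erap1 (-0.18 ± 0.05), Tapbp (-0.16 ± 0.04) and Calr (-0.16 ± 0.04). Their adjusted p ran from 5.58e-11 for B2m to 0.00475 for Erap1. Tap2 (-0.09 ± 0.04, adjusted p = 0.0644) and Pdia3 (-0.06 ± 0.04, adjusted p = 0.132) did not pass, although voom on the recovered reads called Tap2 lower as well (-0.10, adjusted p = 0.0461), 9 members in all. The heavy chains, B2m and Tap1 kept their sign and call in each setting run for this average, with H2-K1 at -0.17 and B2m at -0.31 under quantile normalization. The same normalization moved Calr to 0.03 and Tapbp to -0.05, neither called, and Pdia3 to 0.10, called higher.

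**Figure D2:**
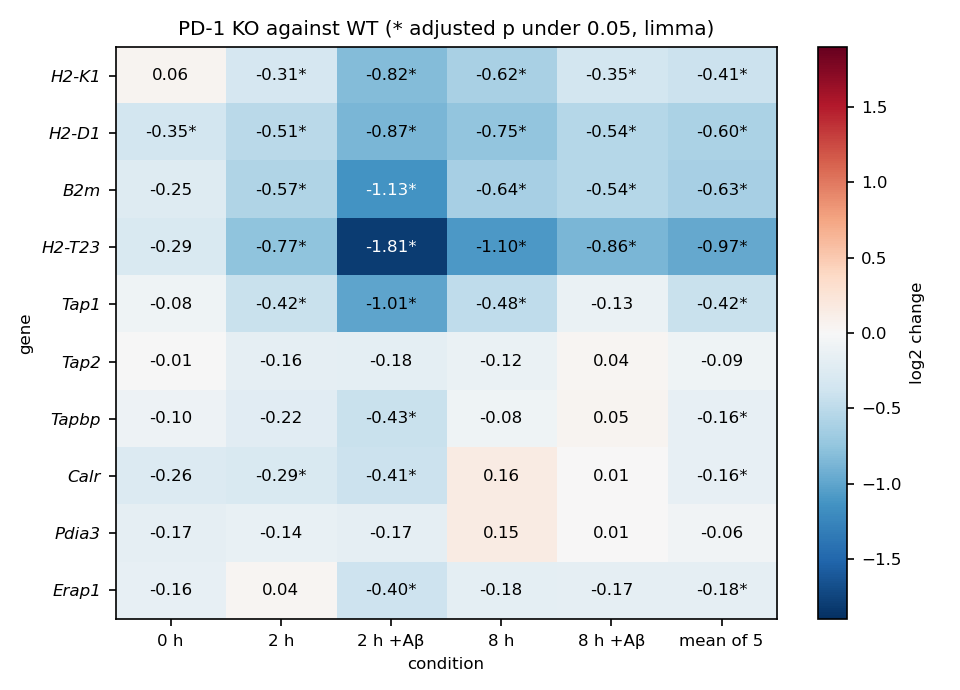
Log2 change of each of the 10 genes in PD-1 KO-labelled libraries against WT libraries, in each of the 5 conditions and as their mean, with negative values (blue) lower in PD-1 KO and an asterisk for an adjusted p under 0.05 in limma. The row of H2-T23 is the deepest, at -1.81 at 2 h with amyloid-beta, and at 8 h Tap2, Tapbp, Calr, Pdia3 and Erap1 hold no asterisk.

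**Figure D3:**
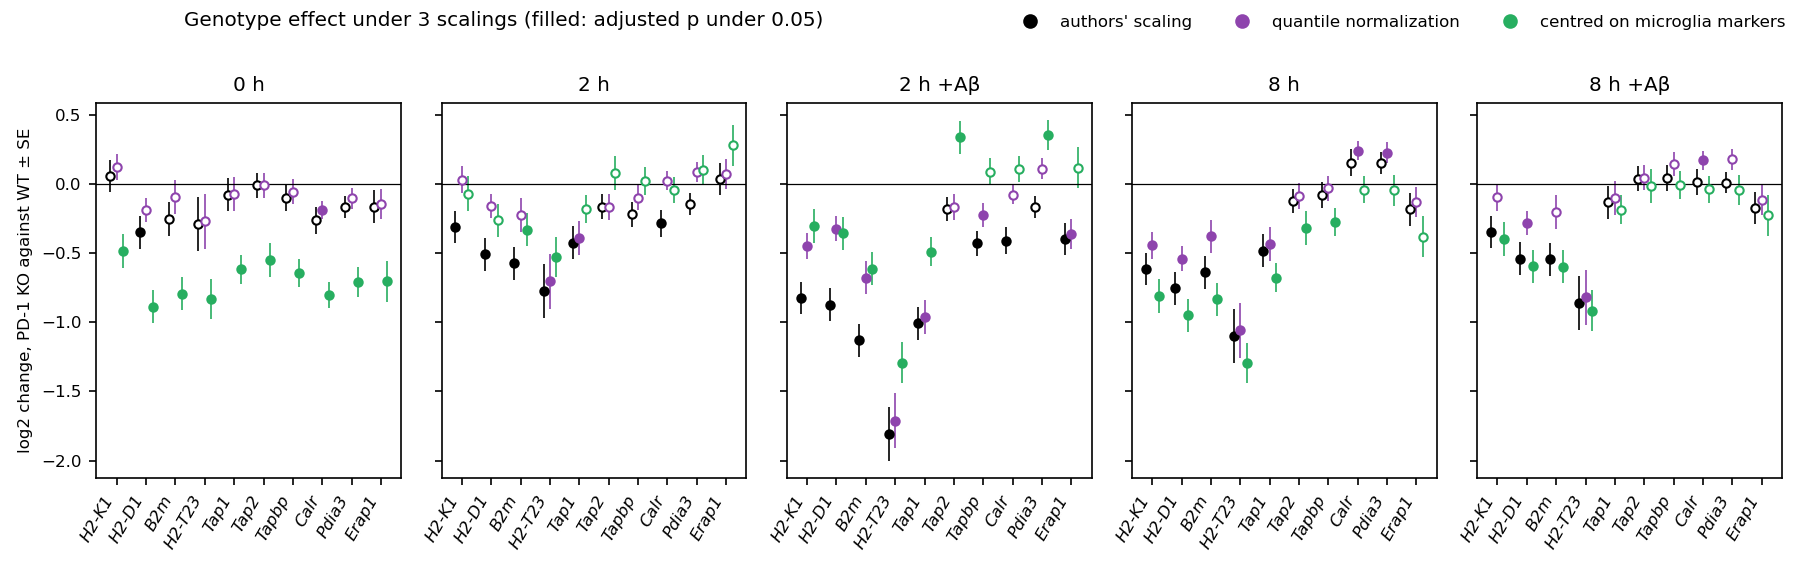
Log2 change ± SE (limma) of each gene in PD-1 KO-labelled libraries against WT libraries under the authors' scaling (black), quantile normalization (purple) and centring on the microglia markers (green), one panel a condition, with filled points for an adjusted p under 0.05. H2-T23 is below 0 in all 15 combinations, whereas Calr, Pdia3 and Tapbp lie on both sides of 0.

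Time in culture without amyloid-beta was compared within each genotype. In WT cultures 2 h against 0 h raised 3 members, H2-K1, Tap1 and B2m, against 2.59% of tested genes higher and 4.75% called in either direction. H2-K1 was 8581 ± 966 at 2 h and 5749 ± 335 at 0 h (SD, n = 3 each), a log2 change of 0.57 ± 0.11 (limma, adjusted p = 0.00301). Tap1 was 1028 ± 49.3 at 2 h and 691 ± 53.8 at 0 h (0.57 ± 0.12, limma adjusted p = 0.0038). B2m was 25736 ± 3138 at 2 h and 18737 ± 774 at 0 h (0.45 ± 0.12, limma adjusted p = 0.0279), and lost its call without any 1 of 4 libraries (WT 2 h replicate 2 or 3, WT 0 h replicate 2 or 3), with TMM factors, with quantile normalization and in a fit of the 2 groups alone. All 3 WT libraries at 2 h lay above all 3 at 0 h for these genes and also for H2-D1 (0.28 ± 0.12) and H2-T23 (0.61 ± 0.20), which were not called (limma adjusted p = 0.195 and 0.0678); 9.56% of tested genes separated that way. Calr was the 1 member with all libraries lower at 2 h, as were 9.89% of tested genes. Among the microglia markers 6 of 12 were higher at 2 h in WT, with a median change of 0.58, and centring on them moved the median of all tested genes to -0.71 and turned H2-K1, Tap1 and B2m to -0.13, -0.13 and -0.25, none called. That centring called 6 other members, all lower at 2 h.

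In cultures labelled PD-1 KO, 2 h against 0 h called 0 members in limma, 1 at an unadjusted p under 0.05 (Calr, -0.24 ± 0.10) and 0 in voom, with 0.634% of tested genes called. Calr also had all 3 libraries lower at 2 h, as did 8.1% of tested genes. H2-K1 was 6895 ± 534 at 2 h and 5994 ± 625 at 0 h (SD, n = 3 each), and B2m was 17246 ± 1379.8 at 2 h and 15931 ± 3070.3 at 0 h. The difference between the genotypes in this change was itself tested and called 0 members in limma, 2 at an unadjusted p under 0.05 and 0 in voom, with 0.736% of tested genes called. H2-K1 stood at -0.37 ± 0.16 (adjusted p = 0.329) and Tap1 at -0.35 ± 0.17 (adjusted p = 0.374), PD-1 KO minus WT. Centring on microglia markers turned both positive, to 0.42 and 0.44, and called 9 members.

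At 8 h against 0 h, WT cultures had 3 members higher and 2 lower, against 3% of tested genes higher, 3.05% lower and 6.05% called in either direction. Libraries did not overlap for 4 members that were higher, H2-T23 among them, and for 2 that were lower, against 12.5% and 13.5% of tested genes. H2-K1 was 10394 ± 1107 at 8 h and 5749 ± 335 at 0 h (SD, n = 3 each), the largest rise of the 10 (0.85 ± 0.11, limma adjusted p = 1.62e-05). B2m was 27454 ± 2379 at 8 h and 18737 ± 774 at 0 h (0.55 ± 0.12, limma adjusted p = 0.00561), and H2-D1 changed by 0.46 ± 0.12 (adjusted p = 0.0206), a call lost without WT 8 h replicate 1 or 3 or WT 0 h replicate 2. Centring on microglia markers, of which 3 of 12 were higher at 8 h, left B2m at 0.20 and H2-D1 at 0.10, neither called. That centring called 6 members in all, so some not called with the authors' scaling gained a call, and Tapbp turned negative. Calr fell to 4545 ± 83.5 at 8 h, against 8574 ± 72.3 at 0 h (-0.92 ± 0.10, limma adjusted p = 3.03e-07), and Pdia3 to 4421 ± 49.6 at 8 h, against 5939 ± 307 at 0 h (-0.42 ± 0.08, limma adjusted p = 0.00113). H2-K1, H2-D1 and B2m thus rose, and Calr and Pdia3 fell, over the same hours in the same libraries. Hspa5 (-0.51 ± 0.09, adjusted p = 0.00036), the chaperone BiP, and Pdia6 (-0.69 ± 0.10, adjusted p = 2.98e-05), another disulfide isomerase, were the 2 of 9 other loading and folding factors that fell there.

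In cultures labelled PD-1 KO, 8 h against 0 h called Calr alone, lower, with 3.29% of tested genes called and 1.79% called lower; it was also the 1 member with all libraries lower, as were 9.47% of tested genes. It was 5072 ± 393 at 8 h and 7217 ± 1205 at 0 h (SD, n = 3 each; -0.50 ± 0.10, limma adjusted p = 0.00203), and in a fit of the 2 groups alone the call was lost. H2-K1 was 6793 ± 881 at 8 h and 5994 ± 625 at 0 h (0.18 ± 0.11), and H2-T23 was 694 ± 121 at 8 h and 856 ± 308 at 0 h (-0.26 ± 0.20), neither called. The genotype difference in the 8 h change called 0 members in limma, 7 at an unadjusted p under 0.05, 5 lower and 2 higher, and 0 in voom, with 0.27% of tested genes called. H2-K1 came closest, at -0.67 ± 0.16 (adjusted p = 0.0671), and passed without PD-1 KO 8 h replicate 3, WT 8 h replicate 2 or PD-1 KO 0 h replicate 1. The library numbers in the titles run in one block for 0 h and 2 h and in another for 8 h, and their meaning is not given, so a change to 8 h, with or without amyloid-beta, cannot be told apart from that block.

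Amyloid-beta medium was compared with none at each time and in each genotype, and no member passed in any of the 4 comparisons. At 2 h in WT, limma called 0 members and 0% of tested genes; 3 members were higher at an unadjusted p under 0.05 and voom called 0. H2-T23 was 2243 ± 171 with amyloid-beta and 1549.8 ± 257 without (0.54 ± 0.20, limma adjusted p = 0.934; SD, n = 3 each), and H2-K1 was 11257 ± 1411 with amyloid-beta and 8581 ± 966 without (0.39 ± 0.11, limma adjusted p = 0.766). For H2-T23, H2-K1, H2-D1 and Tap1 every library with amyloid-beta lay above every library without, a separation seen in 3.35% of tested genes. At 2 h in PD-1 KO, limma called 0 members and 0% of tested genes; 5 were lower at an unadjusted p under 0.05 and voom called 0. In B2m, Tap1, Calr, Pdia3 and Erap1 every library with amyloid-beta lay below every library without, against 6.57% of tested genes. All 10 log2 changes were negative there, from -0.05 for H2-D1 to -0.49 for H2-T23, and B2m was 13084 ± 514 with amyloid-beta and 17246 ± 1379.8 without (-0.40 ± 0.12, limma adjusted p = 0.768).

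The difference between the genotypes in the amyloid-beta effect at 2 h called 0 members in limma, 6 at an unadjusted p under 0.05, all lower, and 0 in voom, with 0.051% of tested genes called. H2-T23 had -1.04 ± 0.28 (adjusted p = 0.275), Tap1 -0.58 ± 0.17 (adjusted p = 0.402), B2m -0.56 ± 0.17 (adjusted p = 0.527) and H2-K1 -0.51 ± 0.16 (adjusted p = 0.585), PD-1 KO minus WT. At 8 h in WT, limma called 0 members, with 2.18% of tested genes called; 7 were lower at an unadjusted p under 0.05, and voom called 0. B2m was 20580.1 ± 1393 with amyloid-beta and 27454 ± 2379 without (-0.41 ± 0.12, limma adjusted p = 0.0695), and Tap1 was 628 ± 57.5 with amyloid-beta and 819 ± 84.2 without (-0.38 ± 0.12, limma adjusted p = 0.0881). In 8 members every WT library with amyloid-beta lay below every one without, against 12.7% of tested genes, and a fit of these 2 groups alone called 5 lower: B2m, H2-T23, H2-K1, Tapbp and Tap1. At 8 h in PD-1 KO, limma called 0 members, with 0.0583% of tested genes called; 3 were lower at an unadjusted p under 0.05, and voom called 0. In B2m, Tap2, Tapbp, Calr and Pdia3 every library with amyloid-beta was the lower, against 8.07% of tested genes. Centring on microglia markers moved the median of all tested genes there to 0.43 and called 6 members higher. The genotype difference in the effect at 8 h called 0 members in limma and 0% of tested genes, 1 at an unadjusted p under 0.05 and 0 in voom.

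**Figure D4:**
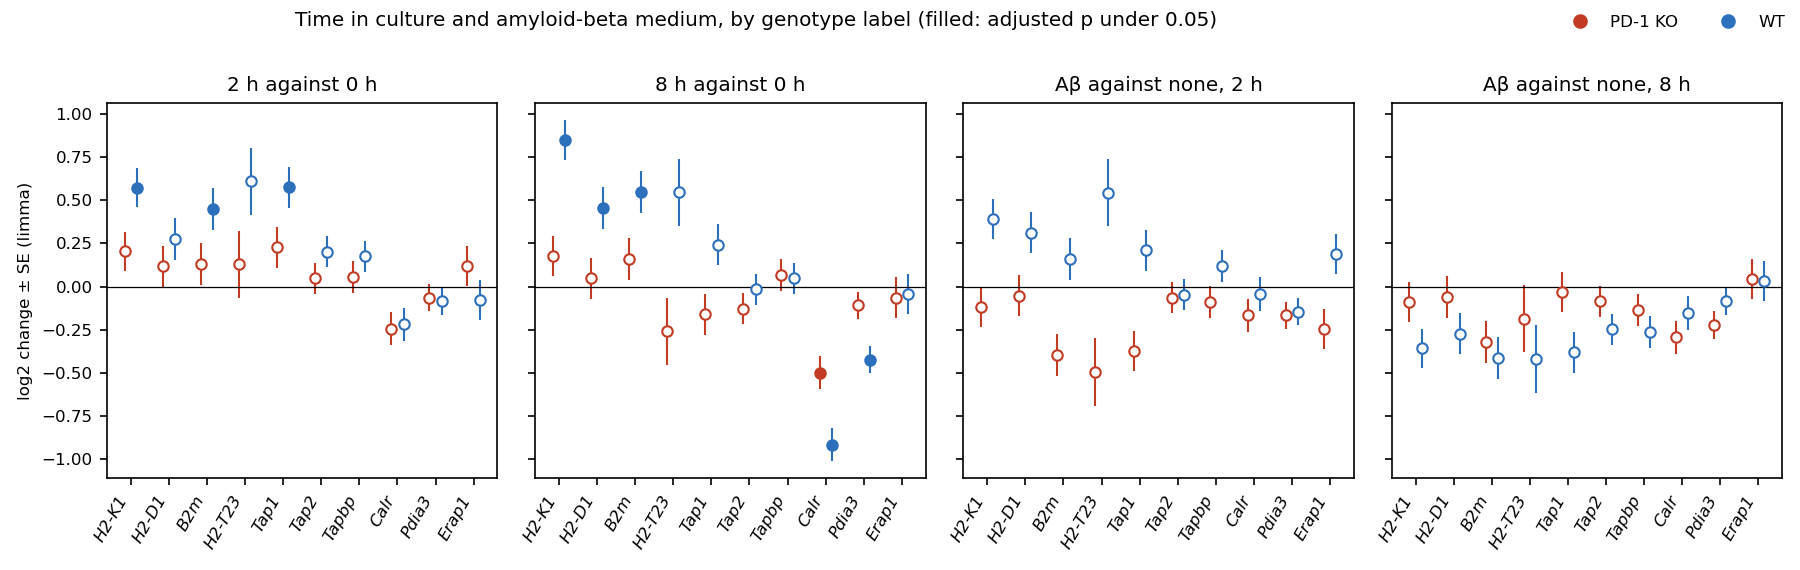
Log2 change ± SE (limma) of each gene for 2 h or 8 h against 0 h in untreated cultures and for amyloid-beta against none at 2 h and 8 h, with PD-1 KO (red) left of WT (blue) and filled points for an adjusted p under 0.05. In the third panel the WT points of the heavy chains lie above 0 and the PD-1 KO points of all 10 genes below it, with no filled point.

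With amyloid-beta, 8 h against 2 h lowered 9 of the 10 members in WT cultures, against 13.8% of tested genes lower and 24.7% called in either direction. H2-T23 was 1100.0 ± 67.9 at 8 h and 2243 ± 171 at 2 h (SD, n = 3 each; -1.03 ± 0.20, limma adjusted p = 0.00047). Tap1 was 628 ± 57.5 at 8 h and 1190.4 ± 72.6 at 2 h (-0.92 ± 0.12, limma adjusted p = 3.96e-06), and Calr was 4087 ± 152 at 8 h and 7171 ± 747 at 2 h (-0.81 ± 0.10, limma adjusted p = 1.86e-06). Erap1 alone did not pass (-0.12 ± 0.12), and the other 9 had all libraries lower at 8 h, against 20.2% of tested genes. Of the microglia markers 10 of 12 were lower at 8 h in the same comparison, with a median of -0.54, and centring on them left H2-T23 and Tap1 called lower, called Pdia3 and Erap1 higher, and turned H2-K1 and B2m to 0.14, H2-D1 to 0.21 and Tapbp to 0.11, none of these called. Calr and Tap2 also lost their calls under that centring. H2-D1 lost its call without WT 8 h replicate 2 or WT 2 h replicate 1 with amyloid-beta, and both H2-D1 and Pdia3 under quantile normalization. In cultures labelled PD-1 KO only Calr was called lower (-0.38 ± 0.10, limma adjusted p = 0.0338), with 1.71% of tested genes called and 0.656% called lower, and that call was lost with TMM factors, without the intensity trend, in voom, with centring on microglia markers and without any 1 of 5 libraries, all but PD-1 KO 8 h replicate 2 with amyloid-beta. In these cultures the 8 h and 2 h libraries did not overlap for Calr and Tap2, lower at 8 h, and Erap1, higher, against 10.7% of tested genes lower and 10.7% higher. Between the genotypes this change was not tested.

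Set out by level, 7 of the 10 members had their highest group mean in WT at 2 h with amyloid-beta, Calr and Pdia3 in WT at 0 h, and Tap2 in WT at 2 h without it. The highest group mean was 3.65 times the lowest for H2-T23, 2.20 times for B2m, between 1.94 and 2.10 times for Calr, Tap1, H2-K1 and H2-D1, and between 1.32 and 1.43 times for the others. Most neighbours in these orders could not be separated: in 77 of the 90 pairs of adjacent groups over the 10 genes the libraries overlapped. For H2-D1 all 5 WT means stood above all 5 PD-1 KO means, and the same held for B2m and H2-T23, whereas H2-K1 had its lowest mean in WT at 0 h.

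The courses of the members over the 30 libraries were compared in pairs, given here as a description since the libraries share groups and scaling. H2-D1 had a Pearson correlation of 0.93 with H2-T23 and 0.91 with H2-K1 on the log2 scale, and B2m one of 0.92 with H2-T23. Calr and Pdia3 had one of 0.91 with each other, against -0.09 for Calr with H2-K1 and -0.16 for Pdia3 with H2-K1. Tap2 had 0.76 with Tap1 but also 0.67 with Calr and 0.63 with Pdia3. Erap1 had no correlation above 0.56, its value with B2m. Whether the members fall into separate sets was not tested. Within groups, after each group's mean was removed, H2-K1 and H2-D1 kept 0.92 and Calr and Pdia3 0.65. There B2m had 0.42 with H2-K1, 0.47 with Calr and 0.58 with Pdia3. Heavy chain genes share sequence: of the 50-base windows of the annotated transcript, 28.8% in H2-T23, 14.3% in H2-D1 and 8.79% in H2-K1 also occur in other genes, and 6.94% of those of H2-K1 occur in H2-D1. How the authors' counting treated such reads is not given in the sources used here, so the split among heavy chains is uncertain, which does not touch B2m, with 0 shared windows.

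Outside the 10, the genes most like H2-K1 over the 30 libraries were Bst2 (Pearson 0.90), Sh3bp2 (0.88) and Trafd1 (0.85). For B2m they were Ly6e (0.94), Ms4a6c (0.94) and Ctss (0.94), and for Tap1 Themis2 (0.93), Epsti1 (0.92) and S1pr2 (0.92). For Calr they were Pdia6 (0.91), Rpn1 (0.90) and Basp1 (0.90).

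The partner genes of the pathway were counted from lists written with earlier results of these data known. The shares of all tested genes are therefore given for scale and not as a test of the lists. Of all tested genes, 16.7% were called lower and 22.2% higher in PD-1 KO-labelled libraries at 2 h with amyloid-beta, 13.4% lower and 18.8% higher at 2 h without it, 9.01% lower and 18% higher at 8 h, 11.7% lower and 22% higher at 8 h with amyloid-beta, and 6.88% lower and 13.8% higher at 0 h. Among 13 genes of peptide supply, 7 were lower and 2 higher in PD-1 KO-labelled libraries at 2 h with amyloid-beta, 6 lower and 1 higher at 2 h without it, 2 lower at 8 h, 4 lower at 8 h with amyloid-beta and 2 lower at 0 h. The genes with the largest falls at 2 h with amyloid-beta were the subunits that replace standard ones in the immunoproteasome and the proteasome activator chain Psme1. Psmb9 had 149, 201 and 185 in PD-1 KO-labelled libraries, against 403, 389 and 426 in WT libraries (-1.19 ± 0.19, adjusted p = 7.91e-06). Psmb8 had 525, 534 and 631 in PD-1 KO-labelled libraries, against 1302, 963 and 1231 in WT libraries (-1.04 ± 0.16, adjusted p = 5.96e-06). Psmb9 lies next to Tap1 on chromosome 17, and both genes showed no overlap between the genotypes. Psmb10 changed by -0.84 ± 0.15 and Psme1 by -0.84 ± 0.12, and the aminopeptidase Npepps (0.48 ± 0.08) and the oligopeptidase Thop1 (0.42 ± 0.15) were the 2 higher genes. Thop1 lost its call under quantile normalization, in a fit of the 2 groups alone and without any 1 of 4 libraries (PD-1 KO replicate 1 or 2, WT replicate 2 or 3). In WT cultures Psmb9 was also higher at 2 h against 0 h (0.83 ± 0.19, adjusted p = 0.00769), a call lost under centring on microglia markers, in a fit of the 2 groups alone and without WT 2 h replicate 2 or WT 0 h replicate 2, and lower at 8 h against 2 h with amyloid-beta (-1.15 ± 0.19, adjusted p = 8.44e-05).

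Of 14 other heavy chain genes tested, 7 were lower in PD-1 KO-labelled libraries at 2 h with amyloid-beta and 0 higher, among them H2-T24 (-1.79 ± 0.30) and H2-T10 (-1.10 ± 0.35). The H2-T10 call was lost under centring on microglia markers and without PD-1 KO replicate 2 or WT replicate 3. H2-L and H2-Q9 were also called but rest on few reads, with 0 to 1 read of H2-Q9 in PD-1 KO-labelled libraries and 9 to 23 in WT libraries. These genes are near copies of one another, so their counts are uncertain. Over the 5 conditions 8 were lower and 1 higher, led by H2-Q6 and H2-L, both low in reads, H2-T24 (-0.64 ± 0.13) and H2-T10 (-0.56 ± 0.16), with H2-M2 the higher one (0.52 ± 0.17); quantile normalization turned H2-M2 to -0.32, not called. H2-Q4 went both ways, higher in PD-1 KO-labelled libraries at 0 h (0.51 ± 0.12) and lower at 8 h (-0.36 ± 0.12), although centring on microglia markers turned the 0 h value to -0.03, and the 8 h call was lost under quantile normalization and without PD-1 KO replicate 1 or 2 or WT replicate 1 or 3. Of the 9 other loading and folding factors 3 were lower at 2 h with amyloid-beta: Tapbpl (-0.60 ± 0.14), the tapasin-related editor TAPBPR, Bcap31 (-0.34 ± 0.10), a receptor for export from the endoplasmic reticulum, and Pdia6 (-0.25 ± 0.10). Centring on microglia markers turned Bcap31 to 0.17 and Pdia6 to 0.27 and left Tapbpl at -0.09, not called. Bcap31 and Pdia6 also lost their calls under quantile normalization, in a fit of the 2 groups alone and without WT replicate 1, and Pdia6 without PD-1 KO replicate 2 or 3 and without the intensity trend. Of the receptors that bind class I, Pirb, an inhibitory receptor on myeloid cells, was higher in PD-1 KO-labelled libraries in the mean of the 5 conditions (0.28 ± 0.05, adjusted p = 4.5e-06). Of 4 class I-like molecules, Fcgrt (0.22 ± 0.06), the neonatal Fc receptor that also pairs with β2-microglobulin, and Hfe (0.17 ± 0.06), a regulator of iron uptake, were higher over the 5 conditions, against 30.3% of all tested genes higher, and Hfe lost its call under quantile normalization (0.13, adjusted p = 0.0614).

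Among 16 regulators of class I transcription tested, with the shares of all tested genes as given above, 10 were lower and 2 higher in PD-1 KO-labelled libraries at 2 h with amyloid-beta, 9 lower at 2 h without it, 5 lower and 1 higher at 8 h, 3 lower and 2 higher at 8 h with amyloid-beta, and 3 lower and 2 higher at 0 h. Nlrc5, the transactivator dedicated to class I genes, was lower in all 5 conditions. At 2 h with amyloid-beta it had 138, 171 and 171 in PD-1 KO-labelled libraries, against 259, 449.7 and 338 in WT libraries (-1.09 ± 0.16, adjusted p = 3.53e-06). At 0 h, where class I itself hardly differed, it had 175, 172 and 160.0 in PD-1 KO-labelled libraries, against 223, 309.6 and 239.6 in WT libraries (-0.59 ± 0.16, adjusted p = 0.00817), a call lost in voom (adjusted p = 0.0508) and without WT replicate 2. Its call at 2 h without amyloid-beta was lost under centring on microglia markers (-0.37). The genotypes did not overlap for Nlrc5 in any of the 5 conditions. In WT cultures the change of Nlrc5 at 2 h against 0 h was -0.01 ± 0.16 (adjusted p = 0.992), in the comparison where H2-K1 and Tap1 rose. Those rises were not called under centring on microglia markers. Whether Nlrc5 bears on class I levels here was not tested. Irf7, an interferon-induced factor, had 54.5, 38.1 and 54.3 in PD-1 KO-labelled libraries, against 369, 447 and 392 in WT libraries, at 2 h with amyloid-beta. Its log2 change was -3.03 ± 0.25, with Stat2 at -1.41 ± 0.13 and Irf9 at -1.19 ± 0.16. Irf1, which can also drive class I genes, did not pass (-0.27 ± 0.14, adjusted p = 0.135), and Rfx5, a DNA-binding partner of NLRC5, was higher in PD-1 KO-labelled libraries (0.46 ± 0.13, adjusted p = 0.00751), a call lost under quantile normalization, in a fit of the 2 groups alone and without PD-1 KO replicate 2.

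**Figure D5:**
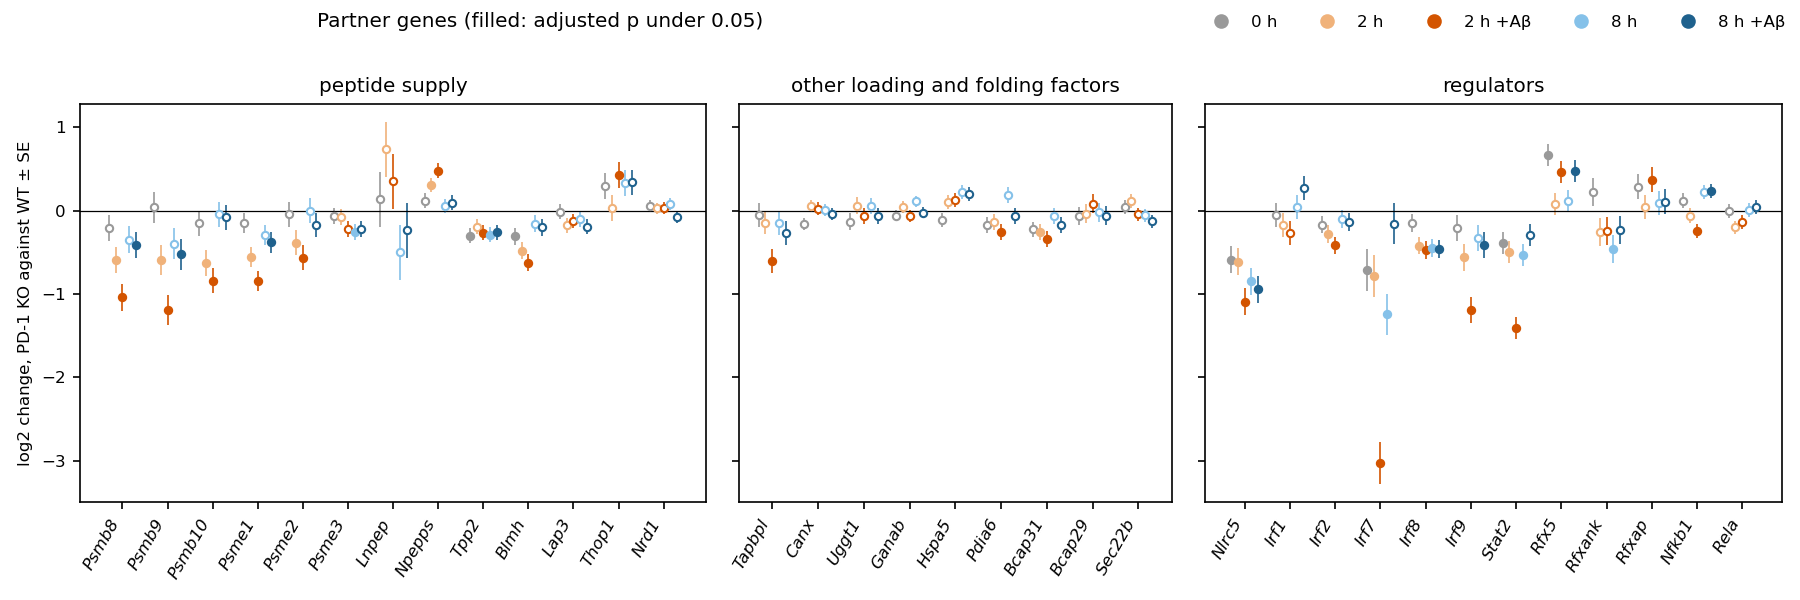
Log2 change ± SE (limma) in PD-1 KO-labelled libraries against WT libraries for genes of peptide supply, other loading and folding factors, and regulators, in the 5 conditions (colours), with filled points for an adjusted p under 0.05. The orange points at 2 h with amyloid-beta are lowest for Irf7 and Stat2. Among the other loading and folding factors Tapbpl lies farthest below 0 there, and Bcap31 and Pdia6 are also filled and below 0.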

How the data were processed

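The deposited table holds 1 signal value per gene and library. The authors scaled each library's gene counts with 1 size factor and raised anything smaller to a floor of 1, as the values show; the floor can hide up to 4 reads. DESeq2, HISAT 0.1.5, Partek 6.6, R 3.0.2 and the mm10 build are named in the submitters' processing notes, with no role for each; the counting program, annotation and strand setting are not given in the sources used here. Per the labels' protocols, libraries were made with a TruSeq RNA kit.

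After adding a pseudocount of 1 and taking log2, the 13722 genes that reached 10 in at least 3 libraries were fitted in limma 3.58.1 (R 4.3.3), with a mean for each of the 10 groups, an intensity trend and 20 residual degrees of freedom, and p-values were adjusted over all genes within each of 20 comparisons (threshold 0.05). Tested on simulated data, the fit made more false calls than the nominal share. Promoter letters come from RefSeq and gene positions from GENCODE M21. The members, lists, motifs and comparisons were chosen with earlier results of these data known. Named partner genes were up to 4 per list, direction and comparison past the threshold, by size of change, plus Nlrc5, Irf1 and Pdcd1; 1 further gene of the rule is not reported here. Replicate numbers here only name libraries.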

Additional observations from a re-analysis of the deposited data

Results flagged for a closer look

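Irf7, Ifngr1 and H2-Q4, partner genes, had a change that differed between the genotypes by the test of the difference itself (limma, PD-1 KO minus WT). The amyloid-beta effect at 2 h on Irf7 differed by -2.24 ± 0.35 (adjusted p = 0.00537), with -1.02 in PD-1 KO and 1.23 in WT, and was -2.26 in voom on the recovered reads, not called (adjusted p = 0.0505). The change at 2 h against 0 h of Ifngr1, a chain of the interferon gamma receptor, differed by -0.52 ± 0.13 (adjusted p = 0.0486), with -0.05 in PD-1 KO and 0.47 in WT; centring on microglia markers turned it to 0.26, not called, and the call was also lost with TMM factors, with quantile normalization, without the intensity trend, in voom, in a fit of the groups compared alone and without any 1 of 8 of the 12 libraries, replicate 2 or 3 of each of the 4 groups. The change at 8 h against 0 h of H2-Q4, a heavy chain gene, differed by -0.88 ± 0.17 (adjusted p = 0.0193), with 0.45 in PD-1 KO and 1.33 in WT; that call was lost in voom, under centring, in a fit of the groups compared alone and without any 1 of 5 libraries (PD-1 KO 8 h replicate 1, WT 8 h replicate 3, PD-1 KO 0 h replicate 2, WT 0 h replicate 1 or 2). None of the 10 members met this condition, and groups of 3 libraries were too small for a check for single outlying libraries.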

How the results depend on the processing

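The heavy chains, B2m and Tap1 kept their direction and their call in PD-1 KO against WT at 8 h, at 2 h with amyloid-beta and in the mean of 5 conditions under every setting run. Counts of called members moved as follows. At 0 h the 1 call became 0 with TMM factors, in voom and in a fit of the groups compared alone, and 10 with centring on microglia markers. Under quantile normalization the count at 0 h stayed at 1, but the member called was not H2-D1. At 2 h the 6 calls became 2 under quantile normalization and 2 under centring. Centring also gave 6 instead of 0 for amyloid-beta at 8 h in PD-1 KO. For 2 h against 0 h in WT it gave 6 instead of 3, but the 6 were other members and all lower, whereas the 3 were higher. For 8 h against 0 h in WT it gave 6 instead of 5, with B2m and H2-D1 no longer among them. It gave 9 instead of 0 and 2 instead of 0 for the genotype difference in the 2 h and 8 h changes. For 8 h against 2 h with amyloid-beta in WT it gave 4 instead of 9, with Pdia3 and Erap1 called higher. Quantile normalization gave 1 for the 8 h difference. A fit of the groups compared alone gave 5 instead of 0 for amyloid-beta at 8 h in WT and 0 instead of 1 for 8 h against 0 h in PD-1 KO. The 1 call for 8 h against 2 h with amyloid-beta in PD-1 KO became 0 with TMM factors, without the intensity trend, in voom and under centring. Leaving out 1 library gave 0 to 4 members at 0 h, 4 to 8 at 2 h, 0 to 1 for the 8 h difference and 0 to 1 for 8 h against 2 h with amyloid-beta in PD-1 KO.

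Directions turned under quantile normalization for Calr (0.035) and Pdia3 (0.10) in the genotype mean, for H2-K1 (0.032) and Calr (0.025) at 2 h, and for the partners H2-M2 (-0.32) and Rfxap (-0.062) in the mean. Under centring they turned at 0 h for H2-K1 (-0.48), H2-Q4 (-0.029), Hfe (-0.075), Ifngr1 (-0.26) and Pirb (-0.15). At 2 h with amyloid-beta they turned for Tap2 (0.34), Tapbp (0.091), Calr (0.11), Pdia3 (0.35), Erap1 (0.12), Bcap31 (0.17) and Pdia6 (0.27). For amyloid-beta at 8 h in PD-1 KO they turned for H2-K1 (0.32), H2-D1 (0.35), Tap1 (0.38), Tap2 (0.33) and Tapbp (0.28). For 2 h against 0 h in WT they turned for H2-K1 (-0.13), H2-D1 (-0.43), B2m (-0.25), Tap1 (-0.13), Tap2 (-0.50), Tapbp (-0.53), Hfe (-0.20), Ifngr1 (-0.23) and Irf8 (-0.34), and for 8 h against 0 h in WT for Tapbp (-0.31) and Ifngr1 (-0.038). For the genotype difference in the 2 h change they turned for H2-K1 (0.42), H2-D1 (0.62), B2m (0.46), Tap1 (0.44), Tap2 (0.63), Tapbp (0.67), Calr (0.76) and Ifngr1 (0.26). For 8 h against 2 h with amyloid-beta in WT they turned for H2-K1 (0.14), H2-D1 (0.21), B2m (0.14), Tap2 (0.20), Tapbp (0.11), Pdia3 (0.34), Erap1 (0.50), Pdia6 (0.16), Psme1 (0.052) and Irf1 (0.070). Centring raises or lowers all genes alike, and in PD-1 KO against WT at 2 h with amyloid-beta 96.3% of its calls were higher, against 57.1% with the authors' scaling; quantile normalization gave 40.4% there and 34.2% instead of 51% in the mean. Why quantile normalization moved the members was not tested.

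No paired analysis was possible because the labels give no replicate numbers. Tests with edgeR and DESeq2 were not run: the deposited values are scaled and floored at 1, and the floor can hide up to 4 reads of a gene in a library; voom was run on the reads recovered above the floor. Centring and voom were added after the data had been seen. Depth did not limit the members, while H2-Q6, H2-Q9 and H2-L rest on few reads.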
